A study of Mus musculus with 12 samples.

Results

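RNA editing was compared at 21 sites that lie outside SINE repeats and change no amino acid, among 143 edited sites listed in the frontal cortex of mice with and without ADAR2. Within this list the sites were chosen by the class the authors gave them, not by how far they were edited. They comprised 14 in 3′ UTRs, 2 in 5′ UTRs and 1 in a 5′ UTR within a LINE repeat. The others were 2 synonymous sites and 2 in microRNA genes. None of the 17 host genes of the 21 sites also has a listed site in a SINE repeat. RefSeq annotates 2610005L07Rik as a transcribed pseudogene, and C230091D08Rik as an older name of the long non-coding RNA Snhg14, so the UTR class of these sites does not match a coding gene in that annotation. Expression and exon usage of the host genes were then read from the gene and exon tables of the same study.

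All 12 libraries were from male C57BL/6 mice. The 6 knockout libraries were from Adar2-/- mice that also carried Gria2R/R, and the 6 control libraries from Adar2+/+ litter mates with the same Gria2R/R alleles. Mice of both groups therefore carried an AMPA receptor gene in which the genome already encodes the arginine that editing would otherwise produce, an allele known to rescue mice lacking ADAR2 from early death. No Cre or cell type restriction is named for the Adar2 allele, and the labels give no age. The deposited values are one percentage per genotype and site, or one comparison per gene or exon bin, so no spread between mice and no read depth can be given.

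ADAR2, encoded by Adarb1, and the related enzyme ADAR1 convert adenosine to inosine in double-stranded RNA. Inosine is read as guanosine, so an edited site appears as a mixture of A and G reads. Editing in a UTR leaves the protein sequence as it is, but lies in the part of an mRNA that microRNAs and RNA-binding proteins contact. Editing of a microRNA precursor can alter its processing, and editing within the seed, the short stretch that pairs with target mRNAs, can change which mRNAs are bound.

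The microRNA members are Mir376c and Mir715. The mature sequences of the miR-376 family are shown because the seed is where editing of this family is known to alter its targets. They are from RefSeq on GRCm38.p6, which held an entry for 1 of the 2 microRNA members, and all lie on the plus strand of chromosome 12. Each is written 5′ to 3′ with the seed, bases 2 to 8, in capitals.
miR-376c-5p: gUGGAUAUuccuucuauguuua
miR-376b-5p: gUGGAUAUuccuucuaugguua
miR-376a-5p: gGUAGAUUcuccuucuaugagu
miR-376b-3p: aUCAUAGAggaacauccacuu
miR-376a-3p: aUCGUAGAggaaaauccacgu
The 5p arms of miR-376c and miR-376b share a seed, and no other mature sequence among the 1738 in the RefSeq table has it. These arms differ at 1 base, U19G, counted from the 5′ end with the base of miR-376c first. The seed of miR-376a-5p and those of the 3p arms of miR-376b and miR-376a are each found in 1 mature sequence of the table. No 3p arm of miR-376c was found there, so the seed of that arm is not shown. The edited position was listed on mm9 and was not placed on these sequences, which are on another build.

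At an adjusted p under 0.05 in the authors' deposited table, editing fell at 9 of the 21 sites in the knockout and rose at 1, and the other 11 did not pass. The test behind this p is not given, so it may reflect the sampling of reads and not the spread between mice. The share of all 143 listed sites that fell was 39.2%, and the share that rose was 9.09%. The 21 sites as a whole thus stood near the background, with 42.9% falling and 4.76% rising. Knockout values in the full list reached down to 0%, while the lowest control value was 9.76%. The rule for listing a site is not given. Whether it favoured sites already edited in controls, and so falls over rises, was not tested. All 9 sites that fell were in 3′ UTRs, and the rise was in a microRNA gene. The other classes held only 7 sites, of which 4 were at 98% or more in knockout and control, and the difference between classes was not tested. Of the 11 sites that did not pass, 5 had 98% or more of their reads edited in knockout and control alike.

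**Figure D1:**
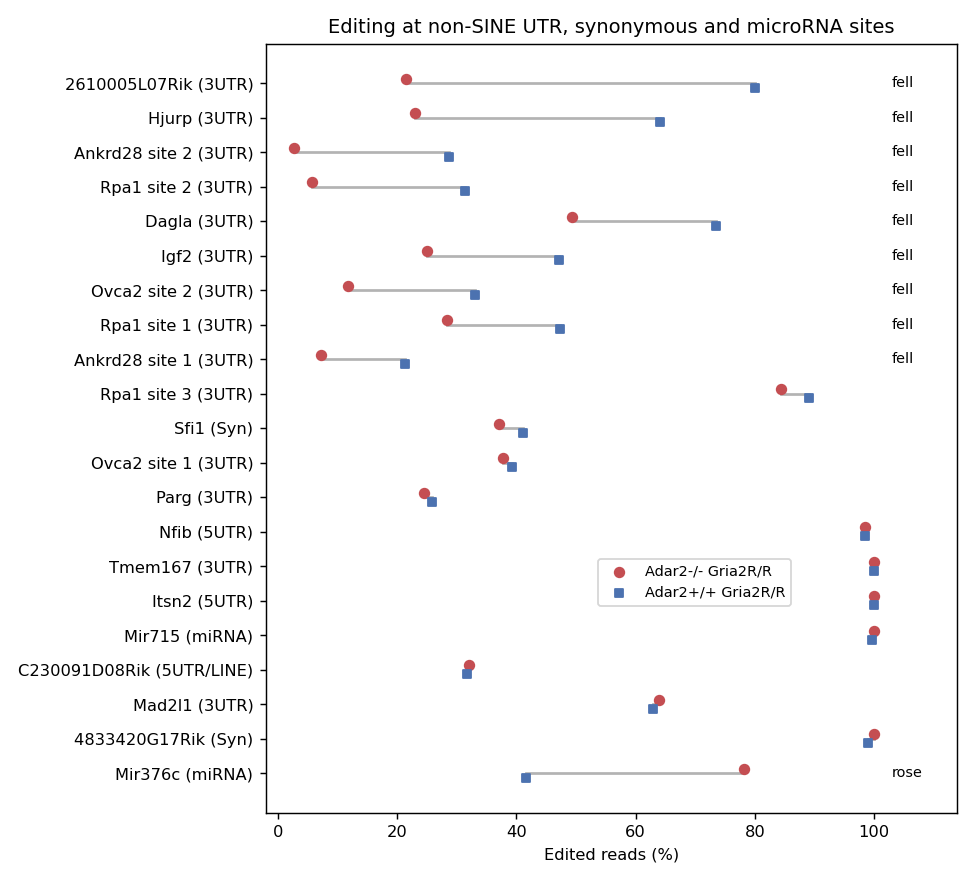
Percentage of edited reads (x axis) at the 21 sites (y axis, with the site class in brackets), as listed for Adar2-/- Gria2R/R (red circles) and Adar2+/+ Gria2R/R (blue squares), each a single deposited value with no error. Sites of one gene are numbered along the chromosome, and "fell" and "rose" mark an adjusted p under 0.05. The 9 sites that fell sit at the top, and Mir376c, at 78.3% in the knockout and 41.7% in the control, at the bottom.

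The widest fall was in 2610005L07Rik (chromosome 8, position 19983392 on mm9), where the authors' deposited table gave 21.4% in the knockout and 80% in the control (adjusted p = 0.00135). It was a difference of -58.6 percentage points, the 7th widest fall among all listed sites. Reads of a transcribed pseudogene can be shared with related copies, so the identity of this site is uncertain.

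Hjurp encodes a chaperone that places the centromeric histone CENP-A. Its 3′ UTR site (chromosome 1, position 90160563) was listed in the authors' deposited table at 23.0% in the knockout and 64.1% in the control (adjusted p = 6.6e-11). Of the control level, 35.9% was left there. Both of these sites were edited in most control reads and in a minority of knockout reads.

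Ankrd28 encodes a regulatory subunit of protein phosphatase 6, and both of its 3′ UTR sites fell to low levels. At position 32513848 of chromosome 14, the authors' deposited table listed 2.68% in the knockout and 28.8% in the control (adjusted p = 9.26e-16). At position 32513812, which lies 36 bases away, it was 7.24% in the knockout and 21.3% in the control in the authors' deposited table (adjusted p = 4.68e-06). The first of these kept 9.32% of its control level, the least among the 21 sites, and the other kept 33.9%.

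Rpa1 encodes the largest subunit of replication protein A, which coats single-stranded DNA. All 3 of its sites in the 3′ UTR had a lower value in the knockout, and 2 of them passed. In the authors' deposited table the site at position 75114502 of chromosome 11 was at 5.79% in the knockout and 31.4% in the control (adjusted p = 1.33e-13). Only 15 bases away, at position 75114517, the authors' deposited table gave 84.4% in the knockout and 89.1% in the control (adjusted p = 0.238). The remaining site, at position 75114080, was listed at 28.4% in the knockout and 47.4% in the control in the authors' deposited table (adjusted p = 0.0217). The neighbours 15 bases apart thus kept 18.5% and 94.8% of their control levels, a contrast that was not itself tested.

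Ovca2, a serine hydrolase gene, also had neighbouring sites that differed in call. The site at position 74989934 of chromosome 11 fell to 11.7% in the knockout, against 33.1% in the control, in the authors' deposited table (adjusted p = 0.000217). Its neighbour 88 bases away, at position 74989846, stood at 37.7% in the knockout and 39.2% in the control in the authors' deposited table (adjusted p = 0.95). In the control these neighbours were edited to a like degree, while in the knockout 35.4% of the control level was left at one and 96.1% at the other. The difference between the 2 sites was not tested.

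**Figure D2:**
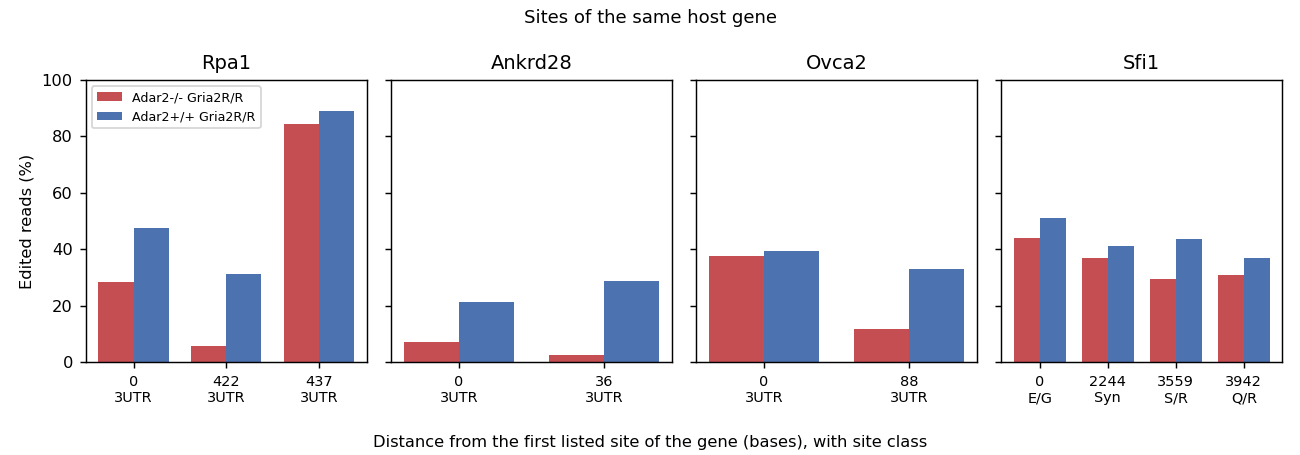
Percentage of edited reads (y axis, bars from 0) at each listed site of Rpa1, Ankrd28, Ovca2 and Sfi1, for Adar2-/- Gria2R/R (red) and Adar2+/+ Gria2R/R (blue), placed by distance in bases from the gene's first listed site. Bars are single deposited values with no error. In Rpa1, the sites at 422 and 437 bases stood at 5.79% and 84.4% in the knockout.

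The remaining 3′ UTR sites that fell, in Dagla and Igf2, had differences of -24.1 and -22.1 points. Dagla encodes diacylglycerol lipase alpha, which makes the endocannabinoid 2-arachidonoylglycerol. Its site (chromosome 19, position 10320186) was at 49.4% in the knockout and 73.5% in the control in the authors' deposited table (adjusted p = 0.00502), so that 67.1% of the control level was left, the most among the sites that fell.

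Igf2 is an imprinted gene for insulin-like growth factor 2, which in the brain is made largely by the meninges and choroid plexus. Its site (chromosome 7, position 149839178) was at 25% in the knockout and 47.1% in the control in the authors' deposited table (adjusted p = 0.00956). In the authors' deposited table the choroid plexus markers Ttr and Kl had mean normalized counts of 34.7 and 103.5, and Folr1 was not listed. Their log2 ratios of condition B over condition A, which the gene table does not tie to a genotype, were -0.15 and -0.11 in the authors' deposited table. These cells' part in the Igf2 value was not tested.

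Across the 9 sites that fell, editing ranged from 2.68% to 49.4% in the knockout and from 21.3% to 80% in the control in the authors' deposited table. The median difference was -24.1 points, and the median site kept 35.4% of its control level. No site among these 9 was listed at 0 in the knockout. By genes, 7 of all 17 hosts had at least 1 site that fell, beside 45 of 95 genes over the whole table. These 7 were all among the 10 hosts of a 3′ UTR site, the class that held every fall.

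Apart from those already named, 3 of the 3′ UTR sites did not pass. Parg encodes the glycohydrolase that removes poly(ADP-ribose), and its site (chromosome 14, position 33109811) was at 24.4% in the knockout and 25.8% in the control in the authors' deposited table (adjusted p = 0.919). Mad2l1, a spindle checkpoint gene, was at 64% in the knockout and 63.0% in the control at its site (chromosome 6, position 66490635) in the authors' deposited table (adjusted p = 1). Tmem167 encodes a small membrane protein of the secretory pathway and had a site at position 90247521 of chromosome 13 that the authors' deposited table listed at 100% for knockout and control. The differences of -1.39 points for Parg and 1.04 points for Mad2l1 came with ample room for a change either way, but without depth no interval can be put on them.

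Mir376c was the only one of the 21 sites to rise. This microRNA gene belongs to the brain-expressed miR-376 cluster of the imprinted Dlk1-Dio3 locus. At position 110960985 of chromosome 12 it was at 78.3% in the knockout and 41.7% in the control in the authors' deposited table (adjusted p = 7.51e-05). That difference of 36.6 points was the widest rise among all 143 sites. The libraries were made from total RNA with no selection for small RNA in the labels, so the value need not describe the mature microRNA.

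Mir715 (chromosome 17, position 39981172) was listed at 99.96% in the knockout and 99.7% in the control in the authors' deposited table (adjusted p = 0.148). The listed value was thus close to complete in both genotypes. Mir715 was not matched to a RefSeq entry, and whether this position is edited was not tested.

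Neither the 5′ UTR sites nor the synonymous sites passed. The 5′ UTR site of Itsn2, an endocytic scaffold gene (chromosome 12, position 4600008), was given as 100% for knockout and control by the authors' deposited table. That of Nfib, a transcription factor of brain development (chromosome 4, position 82151088), was at 98.4% in the knockout and 98.5% in the control in the authors' deposited table (adjusted p = 1). The LINE site of C230091D08Rik (chromosome 7, position 66577955) was edited to an intermediate degree, 32.1% in the knockout and 31.7% in the control in the authors' deposited table (adjusted p = 1). Snhg14, as RefSeq now calls this gene, is the transcript that runs antisense to the imprinted gene Ube3a.

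The synonymous site of 4833420G17Rik (chromosome 13, position 120266616) was at 100% in the knockout and 98.95% in the control in the authors' deposited table (adjusted p = 0.638). The synonymous site of Sfi1, which encodes a centrin-binding protein of the centrosome, lies at position 3035345 of chromosome 11. It was at 37.1% in the knockout and 41.2% in the control in the authors' deposited table (adjusted p = 0.771). Sfi1 also hosts 3 amino acid sites over the surrounding 3942 bases, none of which passed. The smallest adjusted p among them was 0.0614, for the S/R site at 29.4% in the knockout and 43.7% in the control in the authors' deposited table.

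The sites at 98% or more in both genotypes formed a group of 5: Tmem167, Itsn2, Nfib, 4833420G17Rik and Mir715. They came from 3′ UTR, 5′ UTR, synonymous and microRNA classes alike. Of the 122 sites of all other classes, 0 were listed this high in both genotypes. The lowest value inside the group was 98.4%, for Nfib in the knockout, and among the 21 sites the nearest outside was Rpa1 at position 75114517, with 84.4% in the knockout and 89.1% in the control in the authors' deposited table. Whether these 5 positions are edited was not tested.

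With those 5 left out, 16 sites in 12 genes remained, of which 9 fell, 1 rose and 6 did not pass. The share of the control level that was kept was 9.32% to 67.1% at the 9 sites that fell and 90.0% to 101.6% at the 6 that did not pass, ranges that the call itself helps to set. Over all 143 sites the calls overlapped in this share, which reached 91.8% among sites that fell and went down to 55.4% among those that did not pass. From the authors' deposited table, the 16 sites had a median of 26.7% in the knockout and 41.4% in the control. Over all 143 sites the medians were 28.4% in the knockout and 38.3% in the control.

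The 3′ UTR sites outside repeats were set beside the larger classes of the same table as a description. Of the 14, 9 fell and none rose, while of 100 SINE sites 28 fell and 12 rose, and of 22 amino acid sites 19 fell and none rose in the authors' deposited table. The median difference was -20.2 points for the 14 sites, -3.6 points for SINE sites and -34.6 points for amino acid sites. The median site kept 56.5% of the control level in the 14 sites, 93.8% in SINE sites and 24.7% in amino acid sites. An adjusted p depends on coverage, which is unknown here, so these counts can compare detection as well as change.

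**Figure D3:**
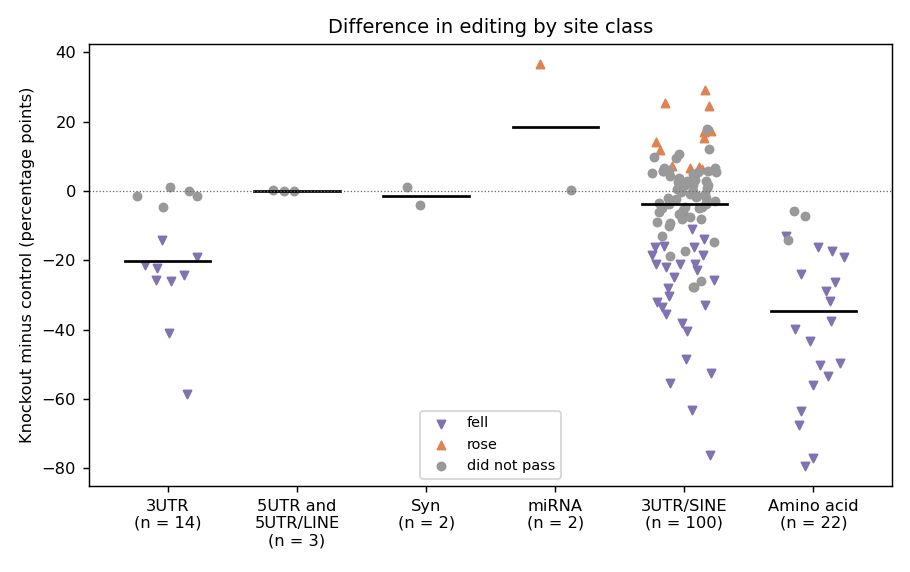
Difference in editing, knockout minus control in percentage points (y axis), for every listed site by class (x axis, with the number of sites). Each point is 1 site, a horizontal line is the class median, and shape and colour show whether the site fell, rose or did not pass an adjusted p under 0.05. The non-SINE 3′ UTR sites had a median of -20.2 points. The 5′ UTR sites, shown together with the LINE site as a group of 3, had one of 0.

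Host gene levels were read from the gene table, which names its conditions only A and B. Its log2 ratios are given as deposited, B over A, with no genotype attached. Adarb1, the targeted gene, had a log2 ratio of 2.21 in the authors' deposited table (adjusted p = 3.06e-126), and this was not used to name the conditions. Of 15191 listed genes, 3 had an adjusted p under 0.05, or 0.0197%. The cortex markers were present: all 8 markers of excitatory cortical neurons were listed, from Fezf2 at 384.0 to Camk2a at 34566 mean normalized counts, and 39 of 42 markers of all cell types looked up were listed, with none passing. Of these 39 markers, 2 had an unadjusted p under 0.05, Ppp1r1b of striatum (p = 0.00242) and Fibcd1 of hippocampus (p = 0.0461), with log2 ratios of -0.30 and 0.33 in the authors' deposited table. All 5 interneuron, all 3 listed striatum and 6 of the 8 excitatory cortical markers had negative log2 ratios, as did 8031 of the 15191 genes. All 3 oligodendrocyte markers had positive ones. The part of any cell type in the host gene values was not tested. In such bulk tissue, fewer cells of a type and less RNA per cell cannot be told apart.

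Of the 17 host genes, 14 were listed and 0 passed, and 0 also had an unadjusted p under 0.05, where 1.86% of all genes did. The smallest p was that of Rpa1, whose log2 ratio was -0.13 at a mean normalized count of 1628 in the authors' deposited table (p = 0.103). Their log2 ratios ran from -0.43 to 0.12 with a median of -0.01, and the median over all genes was also -0.01 when rounded to 2 decimals. In 12 of the 14 the conditions differed by less than 1.2-fold, and over all genes 91.6% did. Mir376c, C230091D08Rik and 2610005L07Rik had no row under these names.

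The 2 hosts outside that range were Mir715 and Hjurp. Mir715 had a log2 ratio of -0.43 at a mean normalized count of 1084 in the authors' deposited table (p = 0.199, adjusted p = 1). Hjurp had one of -0.38 at 1311 in the authors' deposited table (p = 0.255, adjusted p = 1). Only 2.73% of listed genes differed by more than Mir715 and 4.0% by more than Hjurp, yet neither passed.

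The other hosts of a site that fell lay close to 0. In the authors' deposited table the log2 ratio of B over A was -0.13 for Ovca2 (mean normalized count 348.7), -0.07 for Dagla (1304), -0.03 for Igf2 (1297) and 0.03 for Ankrd28 (2887). Among hosts with no site that fell, the authors' deposited table gave log2 ratios of 0.12 for Sfi1 (699.5), 0.05 for Parg (2502), 0.04 for Itsn2 (3056), 0.03 for 4833420G17Rik (1120), 0.01 for Mad2l1 (247.3), 0.01 for Tmem167 (2842) and -0.10 for Nfib (4271). The median log2 ratio was -0.10 over the 6 listed hosts of a site that fell and 0.02 over the 8 others, values that were not tested against each other.

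**Figure D4:**
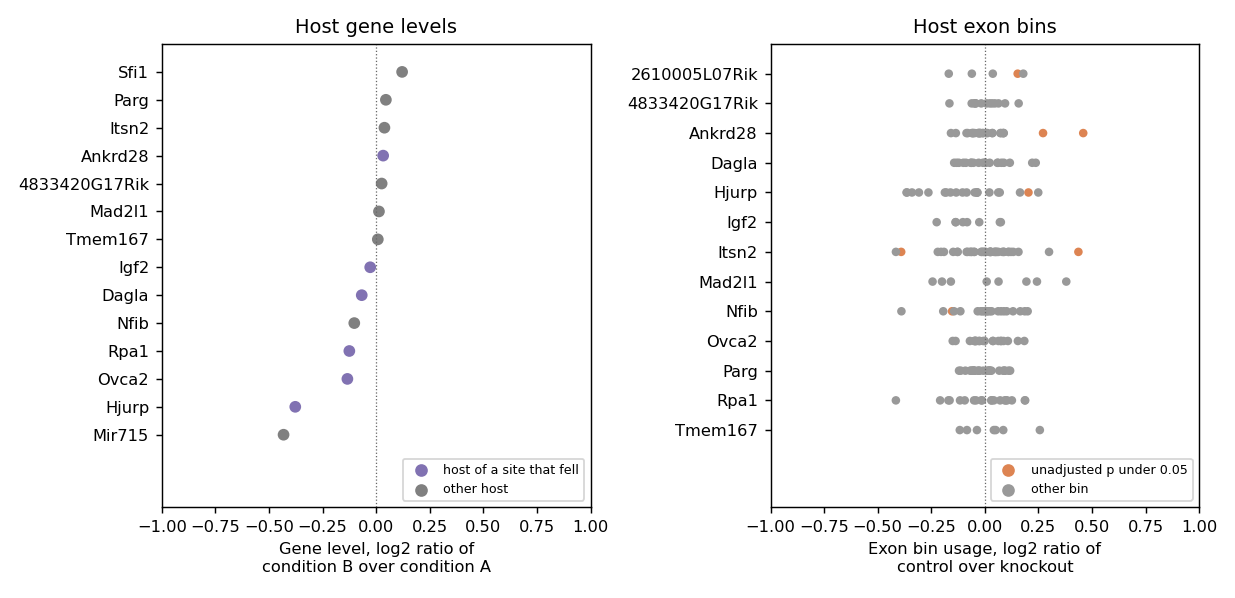
Left, log2 ratio of condition B over condition A in gene level (x axis) for the 14 listed host genes, with hosts of a site that fell in purple. Right, log2 ratio of control over knockout in exon bin usage (x axis) for 238 tested bins of 13 host genes, with the 7 bins of unadjusted p under 0.05 in orange. Points are single deposited values with no error, and 0 genes and 0 bins had an adjusted p under 0.05.

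Exon usage was compared in the bins of these genes, as the log2 ratio of control over knockout, so that a positive value means lower usage in the knockout. Of 238 bins with a p-value in 13 host genes, 0 had an adjusted p under 0.05, where 11 of 149137 bins of all genes, or 0.00738%, did. An unadjusted p under 0.05 was found for 7 host bins in 5 genes, or 2.94%, beside 1.67% of all bins. The tested host bins had log2 ratios from -0.42 to 0.46 with a median of -0.01.

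By unadjusted p, the foremost host bin was E026 of Ankrd28, the gene in which both sites fell. Its log2 ratio of control over knockout was 0.46 at a mean normalized count of 89.8 in the authors' deposited table (p = 0.000794, adjusted p = 1). The next bin, E027, also had an unadjusted p under 0.05, with a log2 ratio of 0.27 in the authors' deposited table, and the other 25 bins of Ankrd28 did not. The bins carry no coordinates in the table, so whether they hold the edited sites was not determined.

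Elsewhere single bins stood out by unadjusted p alone. In the authors' deposited table these were E007 of Hjurp at a log2 ratio of 0.20, E002 of Nfib at -0.15, E013 of 2610005L07Rik at 0.15, and E037 and E004 of Itsn2 at -0.39 and 0.44, each with an adjusted p of 1. The smallest-p bins of the other hosts were E011 of Rpa1 (0.19), E003 of Dagla (0.24), E006 of Tmem167 (0.26), E003 of Mad2l1 (0.38), E009 of Parg (0.12), E013 of 4833420G17Rik (-0.17) and E002 of Igf2 (0.07) as log2 ratios in the authors' deposited table. For Ovca2 it was E022 at 0.18 in the authors' deposited table, but its 21 bins are listed together with Dph1, a gene at the same locus, and cannot be assigned to either, so the gene level of Ovca2 is uncertain as well. The 48 bins listed for Sfi1 are shared with Drg1 and have no p-value. No bins were matched for Mir376c, Mir715 and C230091D08Rik.

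Genes that act around such sites were looked up in the gene table. Among the editing enzymes, 1 of the 6 listed passed, Adarb1, and the others ran from Adat3 at -0.23 to Adat1 at 0.20 as log2 ratios of B over A in the authors' deposited table. None of 22 listed proteins that bind inosine-containing RNA or interact with ADAR enzymes passed, from Stau1 at -0.15 to Pspc1, a paraspeckle protein, at 0.12 in the authors' deposited table, with a median of 0.01. Of 20 listed genes of microRNA processing and silencing 0 passed, and the authors' deposited table had Eif2c2, which encodes Argonaute 2, at -0.29 and Eif2c4 at 0.11, with a median of 0. No member of the last 2 lists had an unadjusted p under 0.05.

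The listed genes around Mir376c showed no called change in level, but part of the locus was not listed. Of 10 genes looked up in the Dlk1-Dio3 locus and its neighbourhood, 6 were listed and 0 passed. Their log2 ratios of B over A ran from -0.06 for Dio3 to 0.05 for Begain in the authors' deposited table. Dio3 had a mean normalized count of only 17.4. Dlk1, Rtl1, Rian and Mirg were not listed, so their levels are unknown here. Meg3, the long non-coding RNA of the locus, had a log2 ratio of 0.04 at a mean normalized count of 41057 in the authors' deposited table. Of 5 listed genes reported as targets of miR-376a-5p in one or the other edited form 0 passed, from Snx19 at -0.03 to the monocarboxylate transporter gene Slc16a1 at 0.15 in the authors' deposited table. Prps1, which encodes a phosphoribosyl pyrophosphate synthetase, was at 0.02 in the authors' deposited table. In both lists 0 genes had an unadjusted p under 0.05. The target genes are those of miR-376a-5p, whose seed differs from that of miR-376c-5p. They therefore do not test the rise at Mir376c, whose edited position was not placed in a seed.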

How the data were processed

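Total RNA from 12 frontal cortex libraries, 6 per genotype, was sequenced with a stranded kit after removal of ribosomal RNA, per the labels, and groups were taken from the genotype label. Build mm9 and the tools SAMtools 01.19.0, DESeq, HTSeq, Bowtie2 2.02.0 and TopHat2 2.0.6 are named, without roles, per the submitters' processing notes. The editing table holds percent values deposited by the authors; the sources used here do not give its caller, test, coverage or pooling. The gene and exon tables hold mean normalized counts, a signal, with log2 ratios and p-values deposited by the authors, per the file headers. Depth per library and per site is unknown, so no intervals are given.

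A site, gene or bin was called at a deposited adjusted p under 0.05. The tests planned for values per library could not be run. Differences, percent of control left, distances and medians were computed with Python 3.11.15 and pandas 2.3.3. The adjustment applied in some alternative settings for genes and bins was tested on simulated data. That check does not bear on the calls, which rest on the deposited adjusted p. Bins were matched to genes by identifier. All member sites and hosts were named, with the listed extremes of each gene list. Members and lists were chosen with earlier results of these data known.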

Additional observations from a re-analysis of the deposited data

How the results depend on the processing

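Of 21 alternatives, 18 gave the same value or a nearby count. Several of these could not have differed, so that number does not measure robustness. Taking all sites of the chosen classes gave the identical 21 sites, and leaving out the sites at 98% or more removed no called site. No host gene had an unadjusted p below 0.103, so the host gene alternatives could only give 0. The number of sites that fell lay between 7, counted as host genes, and 9, and the number that rose was 1 under each threshold. The median difference over the 21 sites was -4.1 points, but it was -16.5 points with the 5 sites at 98% or more left out and -1.39 points with each host gene averaged first. Host genes with a changed level numbered 0 throughout, and host bins 0 except without adjustment, where 7 had p under 0.05. No site had a gene with a SINE row, so that part of the rule removed nothing. No paired analysis was possible because values for single libraries were not part of the 3 tables.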
